A study of Homo sapiens with 42 samples.

Results

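The comparison described here is that of poly(A) mRNA from K562 cells kept in 110 mM KCl for 3 h (KCl 3h) with poly(A) mRNA from untreated K562 cells (CTRL). Its members were chosen by their labels alone, as the 3 KCl 3h and the 3 CTRL mRNA libraries, which are 6 of the 42 samples of the series. K562 is an established line grown from a patient with chronic myeloid leukemia (CML) in blast crisis; it carries the BCR-ABL1 fusion kinase, and all groups are this same line. The study used the kinase inhibitor imatinib and JTE-607, an inhibitor of the nuclease that cuts pre-mRNA at its 3′ end, in other samples, and it took KCl as a hyperosmotic shock that is known to let RNA polymerase II run past the ends of genes. The 3 mRNA libraries from cells kept in 110 mM KCl for 1 h (KCl 1h) are set beside the 3 h libraries where the time matters.

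Adding salt to the medium draws water out of cells. Cells are known to respond by moving ions and then organic solutes across the membrane, by activating stress kinases of the MAP kinase family, and by switching on immediate early genes, the genes that signals induce from factors already present in the cell. Hyperosmotic shock is also a textbook inducer of transcriptional readthrough, in which RNA polymerase II continues beyond the poly(A) site and transcribes the DNA downstream. Short-lived mRNAs follow a change in transcription sooner than stable ones do.

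The values are read counts per gene, given here as CPM, that is, scaled to a common library size with edgeR's TMM factors. The CTRL libraries held 17855236 to 19031221 counted read pairs and the KCl 3h libraries 20242385 to 22505595; of the KCl 1h libraries, replicate 2 was the deepest at 62953314. Mitochondrial genes took 10.0% to 10.9% of the counts in CTRL and 5.83% to 7.21% in KCl 3h. In a principal component analysis of the 9 CTRL and KCl libraries, the first component (35.6% of the variance) ran from -18.6 to -5.71 in CTRL and from 6.84 to 26.7 in KCl 3h, and the second (29.4%) set the libraries numbered 3 apart, with values of 21.4, 16.2 and 6.59 in CTRL, KCl 1h and KCl 3h against 0.899 and below in the others. CTRL replicate 2 and KCl 1h replicate 1 stood apart in amino-acid stress genes, as DDIT4, an mTORC1 inhibitor induced by stress, was at 3.75, 223 and 5.57 CPM in CTRL and 196, 3.53 and 8.05 CPM in KCl 1h. The 12 erythroid and leukemia markers that define K562 summed to 2962 to 4832 CPM in CTRL and 3099 to 5881 CPM in KCl 3h with none at 0, while 15 markers of other cell types summed to 107.8 to 116 CPM and 95.96 to 121.4 CPM. Most of the latter sum was EPCAM, at 86.76 to 95.06 CPM in CTRL and 74.98 to 99.19 CPM in KCl 3h. Of the 9 that were tested, 2 were called higher in KCl 3h, CD14 and DCN. They reached at most 2.475 and 1.701 CPM, and both calls were lost without CTRL replicate 1. In bulk RNA, fewer cells of a type and less RNA per cell cannot be told apart.

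After 3 h of KCl, 823 of 18095 genes tested were higher and 1327 lower than in CTRL by the call used here. A call needed a Benjamini-Hochberg adjusted p under 0.05 in edgeR's quasi-likelihood test together with a log2 change, up or down, of more than 0.6; by that rule 11.9% of all genes tested were called, 4.55% higher and 7.33% lower. The median log2 fold change was 0.02 over all genes, 2.43 over the genes called higher and -1.31 over those called lower. The KCl 3h and CTRL libraries did not overlap for 810 of the 823 and for 1300 of the 1327, against 14.5% and 15.6% of all genes tested, or 30% in either direction. Part of these values belongs to genes near 0 in the lower group, whose fitted change depends on the prior count. Of the 534 genes that rose and had over 3 counts in a CTRL library, 199 were beyond 2 on the log2 scale, with a median of 1.62, and of the 1145 that fell and had over 3 counts in a KCl 3h library, 153 were beyond -2, with a median of -1.14.

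**Figure D1:**
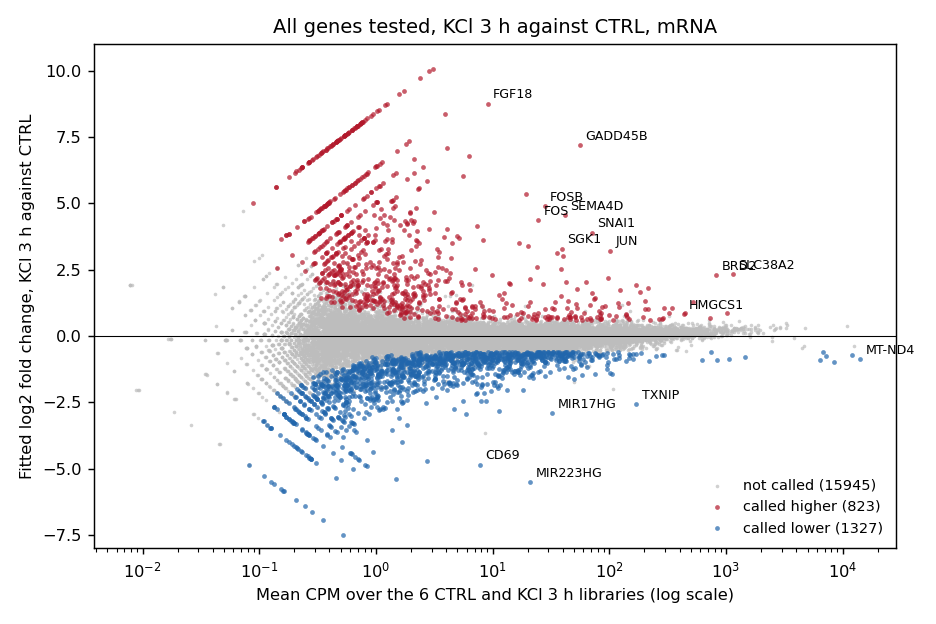
Fitted log2 fold change of KCl 3h against CTRL (vertical axis) by mean CPM over the 6 libraries (horizontal axis, log scale), 1 point per gene tested, red for the 823 genes called higher, blue for the 1327 called lower and gray for the rest. Most called genes have a low mean, and the slanted lines of red points at the upper left are genes with counts near 0 in CTRL, whose fitted value depends on the prior count.

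Scarce mRNAs were called more often than abundant ones. Among genes with a mean under 1 CPM, 8.81% were called higher and 10.1% lower; among those at 100 CPM or more the shares were 1.45% and 1.41%. Of the 823 rises, 289 were genes with at most 3 counts in every CTRL library, 196 of them protein-coding. For these only a lower bound of the fold is given, taken against 3 counts per library, which was 0.163 CPM in CTRL. Long noncoding RNAs fell more often than they rose, with 430 lower and 122 higher of 2414 and a median of -0.34, where protein-coding genes had 636 lower and 566 higher of 12704 and a median of 0.04.

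GADD45B, which encodes an activator of stress MAP kinase signaling, had the largest rise among genes with at least 10 CPM in KCl 3h and over 3 counts in a CTRL library. It was at 0.606, 0.314 and 1.39 CPM in CTRL, at 13.3, 8.19 and 23.4 CPM in KCl 1h and at 134, 48 and 152 CPM in KCl 3h. The 3 groups did not overlap, and KCl 3h exceeded CTRL by 7.18 ± 0.53 on the log2 scale (SE, n = 3 and 3, edgeR quasi-likelihood adjusted p 5.22e-09). The gene lies on chromosome 19 at 2476122 to 2478259 of GRCh38, on the plus strand.

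FOSB and FOS, which pair with Jun proteins to form the transcription factor AP-1, rose with it. FOSB was at 1.65, 1.10 and 2.79 CPM in CTRL and 66.9, 30.5 and 65.2 CPM in KCl 3h, a log2 change of 4.88 ± 0.45 (adjusted p 8.34e-08). FOS was at 0.827, 3.20 and 2.73 CPM in CTRL, 34.1, 15.3 and 42.1 CPM in KCl 1h and 53.3, 34.1 and 52.9 CPM in KCl 3h, a change of 4.37 ± 0.50 from CTRL (adjusted p 1.7e-06). Replicate 2 was the lowest of the KCl 3h libraries for GADD45B, FOSB and FOS alike, and still lay above every CTRL library.

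The partners of Fos rose less. JUN was at 16.0, 18.5 and 24.9 CPM in CTRL and at 136, 174 and 237 CPM in KCl 3h, which is 3.20 ± 0.28 on the log2 scale (adjusted p 4.26e-08). JUNB went from 19.3, 20.7 and 31.5 CPM to 86.3, 71.3 and 86.4 CPM, a change of 1.77 ± 0.25 (adjusted p 2.21e-05), and JUND was not called at -0.44. Of 19 immediate early genes tested, 11 rose (57.9%, beside 4.55% of all genes tested) and 0 fell, with a median log2 change of 0.79 against 0.02 over all genes.

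The nuclear receptors of the NR4A family, which act without a known ligand, were among the 11. NR4A2 was at 5.18, 8.12 and 8.75 CPM in CTRL and at 82.1, 65.3 and 46.4 CPM in KCl 3h. All treated libraries lay far above all controls, with a log2 change of 3.13 ± 0.23 (adjusted p 1.88e-09). NR4A1 rose by 2.08 ± 0.31 (adjusted p 3.07e-05). IER3, which restrains apoptosis, rose by 3.02 ± 0.31 (adjusted p 2.58e-07). KLF4, a zinc-finger factor of the KLF family and not on the list, was at 0.331, 0.576 and 0.223 CPM in CTRL and 4.70, 2.17 and 6.04 CPM in KCl 3h, a rise of 3.48 ± 0.45 (adjusted p 5.32e-06). Of 10 KLF family genes tested it was the 1 called higher (10%), and 2 were called lower (20%), KLF9 (-0.91) and KLF3 (-0.60). Both falls lost their call without KCl 3h replicate 3 (-0.72 and -0.43). Over all genes tested 4.55% were higher and 7.33% lower. EGR1, a zinc-finger factor that ERK signaling induces, was not called at 0.58. ATF3, at 5.07, 47.8 and 5.80 CPM in CTRL and 40.4, 25.0 and 34.5 CPM in KCl 3h, was not called either, and CTRL replicate 2 lay above all treated libraries. Without the libraries numbered 3, 8 of the immediate early genes were called higher.

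Promoters of FOS, FOSB and GADD45B are shown because all 3 hold the letters TATAAA at the place of a TATA box, the element that positions RNA polymerase II. Each line gives the 250 bases before the start annotated by RefSeq (GRCh38.p14), 5′ to 3′, on the plus strand, with TATAAA in capitals.
FOS, chr14:75278578-75278827: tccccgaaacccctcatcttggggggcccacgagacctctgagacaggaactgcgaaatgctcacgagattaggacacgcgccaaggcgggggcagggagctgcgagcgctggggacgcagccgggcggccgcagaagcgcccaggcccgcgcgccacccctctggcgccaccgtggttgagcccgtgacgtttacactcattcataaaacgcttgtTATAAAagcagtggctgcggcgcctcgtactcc
FOSB, chr19:45467746-45467995: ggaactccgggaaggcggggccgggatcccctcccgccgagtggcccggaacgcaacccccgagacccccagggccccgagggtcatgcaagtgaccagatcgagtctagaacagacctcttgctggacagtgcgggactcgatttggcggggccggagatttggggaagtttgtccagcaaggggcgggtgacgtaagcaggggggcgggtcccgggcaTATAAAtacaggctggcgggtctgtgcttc
GADD45B, chr19:2475877-2476126: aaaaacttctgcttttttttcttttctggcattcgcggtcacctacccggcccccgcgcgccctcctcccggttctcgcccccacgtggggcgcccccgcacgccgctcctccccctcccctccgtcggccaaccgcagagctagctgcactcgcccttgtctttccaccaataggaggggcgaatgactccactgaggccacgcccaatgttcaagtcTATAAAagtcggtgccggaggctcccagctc

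Counted back from the start, TATAAA covers bases -33 to -28 in FOS, -30 to -25 in FOSB and -31 to -26 in GADD45B. Of the 129 protein-coding genes called higher with a mean of 10 CPM or more in KCl 3h, 111 had a RefSeq promoter, and 12 of these (10.8%) held TATAAA on the plus strand with its first base between -40 and -20. The other 9 were DUSP1, HEXIM1, HMGCS1, INSIG1, JUNB, NXF1, PPP1R10, PPP1R15A and ZC3H12A. Among all 10368 protein-coding genes tested that had a promoter the share was 1.89%, and among all 27305 RefSeq promoters 2.55%. The other motifs were searched on both strands of the same promoters, over the 250 bases before the start. TGACGTCA, the full cyclic AMP response element, was in 6.31% of the 111 and 2.97% of the 10368; TGACTCA, the AP-1 element, was in 3.60% and 2.47%. The CArG box bound by SRF was in 0.901% and 0.993%, TCACNCCAC of the sterol regulatory element in 0.901% and 0.781%, and TGGAAA, the core letters bound by NFAT5, in 13.5% and 13.4%. These are letter matches, and binding was not measured.

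SEMA4D, a membrane semaphorin of blood cells, had the smallest standard error of the 10 largest rises shown by library. Its libraries read 3.14, 3.61 and 3.51 CPM in CTRL, 11.6, 14.8 and 15.7 CPM in KCl 1h and 77.5, 79.4 and 82.3 CPM in KCl 3h. The spread within each group was small beside the distance between groups, and the change from CTRL was 4.54 ± 0.16 on the log2 scale (adjusted p 7.1e-16). SNAI1, a repressor of epithelial genes, was at 7.16, 6.86 and 12.7 CPM in CTRL and 163, 87.3 and 146 CPM in KCl 3h, a change of 3.89 ± 0.33 (adjusted p 2.37e-08).

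**Figure D2:**
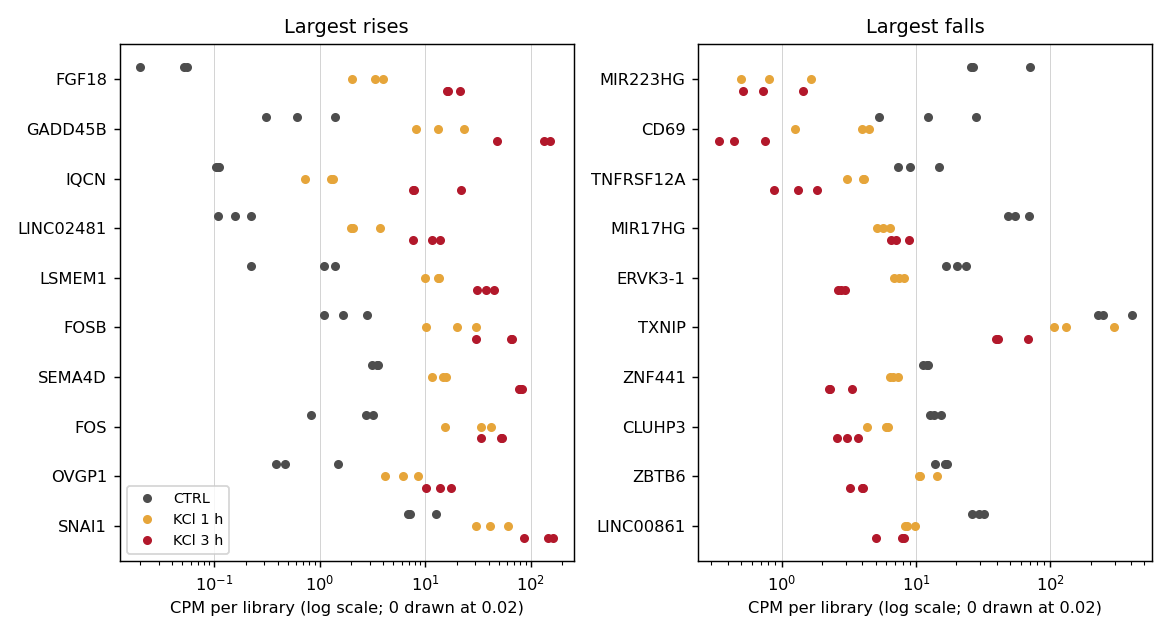
CPM in each of the 3 CTRL (gray), 3 KCl 1h (orange) and 3 KCl 3h (red) libraries, on a log axis, for the 10 largest rises (left) and falls (right) among called genes with a symbol, at least 10 CPM on average where they were higher and separate CTRL and KCl 3h values. In the left panel the orange points of most genes, GADD45B and SEMA4D among them, lie between gray and red, while on the right MIR223HG and MIR17HG are as low at 1 h as at 3 h.

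Phosphatases that act on stress kinases were among the rises. DUSP1, a phosphatase that removes phosphate from p38 and JNK, was at 10.4, 10.7 and 11.7 CPM in CTRL and 39.2, 40.6 and 48.5 CPM in KCl 3h, and rose by 1.97 ± 0.15 (adjusted p 3.37e-09). DUSP10, of the same class, rose by 1.54 ± 0.32 (adjusted p 1.37e-03). GADD45G, a relative of GADD45B, was at or under the floor of 3 counts in CTRL and at 0.636, 0.189 and 1.48 CPM in KCl 3h. Among 19 tested genes of the stress kinase pathway, these 3 and GADD45B rose (21.1%) and 0 fell, and the median was 0.09. Over all genes tested 4.55% were called higher.

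ZFP36, which binds AU-rich elements and brings mRNAs to decay, was at 11.2, 12.1 and 10.9 CPM in CTRL, at 15.0, 13.9 and 16.0 CPM in KCl 1h and at 67.5, 67.6 and 63.4 CPM in KCl 3h. Its rise over CTRL was 2.54 ± 0.14 (adjusted p 2.48e-11), and most of it came after the first hour. Its relative ZFP36L1 rose by 2.02 ± 0.21 (adjusted p 4.5e-07). TOB1, an antiproliferative adaptor of the deadenylase complex, rose by 0.72, and its relative TOB2 by 0.71, a call that was lost without KCl 3h replicate 2 (0.55). Of 14 tested genes of mRNA decay and growth arrest, these 4 rose (28.6%, beside 4.55% of all genes tested) and 0 fell. ZC3H12A, an RNase that cuts inflammatory mRNAs and was not on that list, rose by 2.12 ± 0.19 (adjusted p 2.54e-08).

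Of 27 tested genes of osmotic adaptation and ion transport, 2 rose (7.41%) and 1 fell (3.70%), with a median of 0.12. Over all genes tested the shares were 4.55% higher and 7.33% lower. SGK1, a kinase that raises sodium transport and is named for its regulation by serum and glucocorticoids, was at 6.89, 4.61 and 10.3 CPM in CTRL and 90.1, 36.4 and 86.6 CPM in KCl 3h, a rise of 3.29 ± 0.37 (adjusted p 1.1e-06). SLC38A2, which takes up neutral amino acids and is a known carrier of compatible osmolytes, was at 232, 675 and 245 CPM in CTRL, 1151, 922 and 855 CPM in KCl 1h and 1920, 1965 and 1884 CPM in KCl 3h. All treated libraries exceeded all controls, and the rise was 2.32 ± 0.49 (adjusted p 2.18e-03). CTRL replicate 2, which was high in amino-acid stress genes, was also the highest control for SLC38A2; the part of that state in the value was not tested.

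The main osmoregulatory factor was not called. Of its classical targets given here, AKR1B1 and SLC6A6 were not called and SLC5A3 was called lower. NFAT5, the transcription factor of osmotic adaptation, was at 87.8, 79.7 and 80.5 CPM in CTRL and 112, 102 and 128 CPM in KCl 3h, which is 0.46 ± 0.13 with an adjusted p of 0.0133, short of the fold threshold. AKR1B1, the aldose reductase that makes sorbitol, stood at 0.20 ± 0.19 (adjusted p 0.572) and SLC6A6, the taurine carrier, at 0.15 ± 0.20 (adjusted p 0.693). SLC5A3, the myo-inositol carrier, was lower, at 68.4, 65.8 and 76.5 CPM in CTRL and 47.3, 50.4 and 34.6 CPM in KCl 3h. That fall of 0.67 ± 0.16 on the log2 scale (adjusted p 4.05e-03) was no longer called without KCl 3h replicate 3, where it was -0.52.

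DNAJB1, a cochaperone of Hsp70, was at 109, 99.0 and 140 CPM in CTRL and 274, 255 and 344 CPM in KCl 3h, a rise of 1.32 ± 0.17 (adjusted p 4.06e-06), and DNAJA1 rose by 0.86 ± 0.14 (adjusted p 1.14e-04). With HSPA1L, whose rise of 0.95 lost its call without CTRL replicate 1 (0.96), CTRL replicate 2 (0.68), KCl 3h replicate 1 (0.91) or KCl 3h replicate 3 (0.81), 3 of 21 heat-shock genes rose and 0 fell, and the median was 0.31. The share that rose was 14.3%, beside 4.55% of all genes tested. HSPA1A and HSPA1B, the inducible Hsp70 genes, were not called at 0.93 ± 0.34 and 1.16 ± 0.44 (adjusted p 0.0706 and 0.0839). They are near-identical, and the authors kept only reads that map to a single place, so reads from sequence they share were not counted.

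Of 24 genes of the integrated stress and unfolded protein responses, PPP1R15A, the phosphatase subunit that restores translation by removing phosphate from eIF2α, alone was called (4.17%, near the 4.55% of all genes tested that were called higher). PPP1R15A was at 70.7, 95.6 and 93.8 CPM in CTRL and 183, 187 and 239 CPM in KCl 3h, a rise of 1.23 ± 0.20 (adjusted p 1.27e-04). ATF4, the factor at the center of that response, was at 149, 420 and 157 CPM in CTRL and 481, 373 and 380 CPM in KCl 3h, a difference of 0.76 ± 0.50 that was not called. In the fit without the low-count filter ATF4 was called higher, at 0.75, and in no other setting tried. Its target CHAC1, which degrades glutathione, was at 0.276, 47.4 and 0.557 CPM in CTRL and at 0.891 to 1.62 CPM in KCl 3h, with CTRL replicate 2 again apart from the other controls.

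BRD2, a bromodomain protein that binds acetylated histones, was at 288, 233 and 316 CPM in CTRL, 672, 707 and 827 CPM in KCl 1h and 1356, 1211 and 1542 CPM in KCl 3h. The groups did not overlap at either step, and the rise over CTRL was 2.29 ± 0.15 (adjusted p 3.56e-10). HEXIM1, the inhibitor of the elongation kinase P-TEFb, was at 53, 44.8 and 75.1 CPM in CTRL and 190, 166 and 219 CPM in KCl 3h, a rise of 1.73 ± 0.24 (adjusted p 1.59e-05); it was 1 of 20 elongation genes called higher, with 0 lower. Among 18 genes of 3′-end processing, CSTF2T, a paralog of the cleavage stimulation factor CSTF2, fell from 69.6, 65.2 and 75.7 CPM to 39.0, 46.3 and 41.6 CPM (-0.73 ± 0.09, adjusted p 5.53e-06), and 0 rose. The shares were 5% higher for the elongation genes and 5.56% lower for those of 3′-end processing. Both lie near the 4.55% higher and 7.33% lower of all genes tested, so neither list stands out.

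Growth and differentiation genes moved singly. CDKN1A, the cyclin-dependent kinase inhibitor p21, was at 1.87, 2.10 and 2.34 CPM in CTRL and 13.5, 5.53 and 16.9 CPM in KCl 3h, a rise of 2.50 ± 0.37 (adjusted p 2.64e-05), and it was the single call among 18 genes of the G1 phase. That share of 5.56% is near the 4.55% of all genes tested that were called higher. By edgeR's test 0 of 17 mitotic genes were called, where 5 had an unadjusted p under 0.05 and DESeq2 called 0. GATA2, the factor of blood progenitors, was at 195, 173 and 203 CPM in CTRL and 379, 373 and 429 CPM in KCl 3h (1.05 ± 0.16, adjusted p 5.41e-05), whereas GATA1, which drives erythroid genes, was at 0.02 ± 0.15 and edgeR called 0 of 27 erythroid genes, of which 3 had an unadjusted p under 0.05; DESeq2 called 0 as well. MYC was not called at -0.49 ± 0.28 (adjusted p 0.279), and MNT, its antagonist in the Max network, fell by 0.92 ± 0.18 on the log2 scale (adjusted p 5.94e-04).

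Of 17 genes that STAT5 or ERK signaling induces, 4 fell (23.5%) and 1 rose (5.88%), beside 7.33% and 4.55% of all genes tested. SPRY2, a feedback inhibitor of receptor tyrosine kinases, was at 7.44, 6.71 and 7.41 CPM in CTRL and 2.55, 2.93 and 3.41 CPM in KCl 3h (-1.28 ± 0.19, adjusted p 3.34e-05), and SPRED2, of the same family, fell by 0.71 ± 0.14 on the log2 scale (adjusted p 9.56e-04). The falls of ID1 (-1.02) and CISH (-0.86) were lost without CTRL replicate 2 (-0.73 and -0.66), without KCl 3h replicate 2 (-0.87 and -0.88) and without KCl 3h replicate 3 (-1.01 and -0.65); CISH was also lost without CTRL replicate 1 (-0.79) and with RLE size factors (-0.86). ID2, which blocks differentiation factors, rose by 2.59 ± 0.61 (adjusted p 4.86e-03).

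Genes of cholesterol synthesis rose between 1 h and 3 h. Of 15 tested, 7 were called higher than CTRL at 3 h (46.7%) and 0 lower, with a median of 0.54, and 6 of the 15 were higher at 3 h than at 1 h. Over all genes tested 4.55% were higher than CTRL at 3 h and 1.37% were higher at 3 h than at 1 h. The median at 1 h against the same controls was 0.04. INSIG1, which holds the sterol sensor in the endoplasmic reticulum, was at 317, 372 and 230 CPM in CTRL, 426, 367 and 346 CPM in KCl 1h and 690, 720 and 800 CPM in KCl 3h. Its rise over CTRL was 1.27 ± 0.21 (adjusted p 1.05e-04), and KCl 3h exceeded KCl 1h by 0.96 ± 0.20.

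Several enzymes of the pathway were among the 7. HMGCS1, at its entry, was at 319, 349 and 275 CPM in CTRL and 537, 547 and 584 CPM in KCl 3h (0.82 ± 0.12, adjusted p 3.31e-05). SQLE, the squalene epoxidase, rose by 1.04 ± 0.12 (adjusted p 1.28e-06) and MSMO1, a sterol demethylase, by 1.93 ± 0.37 (adjusted p 7.69e-04). IDI1, the isopentenyl diphosphate isomerase, rose by 0.99 ± 0.14 (adjusted p 1.96e-05) and CYP51A1, the lanosterol demethylase, by 0.62 ± 0.20 (adjusted p 0.0315). The count was 5 to 8 when any single library was left out.

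mRNAs of the mitochondrial genome, which are transcribed by their own polymerase, were lower. MT-ND4, a subunit of complex I, was at 19030, 17682 and 18025 CPM in CTRL, 13578, 18164 and 13600 CPM in KCl 1h and 8673, 11263 and 9808 CPM in KCl 3h. KCl 3h lay below both other groups in every library, by 0.88 ± 0.12 on the log2 scale from CTRL (adjusted p 8.96e-06). MT-CO3, a subunit of cytochrome c oxidase, had CTRL values of 11709, 10921 and 11287 CPM and KCl 3h values of 4727, 6892 and 5496 CPM (-0.99 ± 0.11, adjusted p 1.1e-06). Of 36 mitochondrial genes tested, 10 fell (27.8%) and 1 rose (2.78%), with a median of -0.45, beside 7.33% and 4.55% of all genes tested. The 10 were all mRNAs, and the mRNAs MT-CYB (-0.40), MT-ND1 (-0.46) and MT-ND5 (-0.06) and the ribosomal RNAs MT-RNR1 (0.32) and MT-RNR2 (-0.39) were not called. MT-ND2 (-0.63) lost its call without KCl 3h replicate 1 (-0.57). Since these genes held 10.0% to 10.9% of the CTRL counts, the fit was repeated without them: 2143 of the other genes were then called, 781 higher and 1362 lower.

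**Figure D3:**
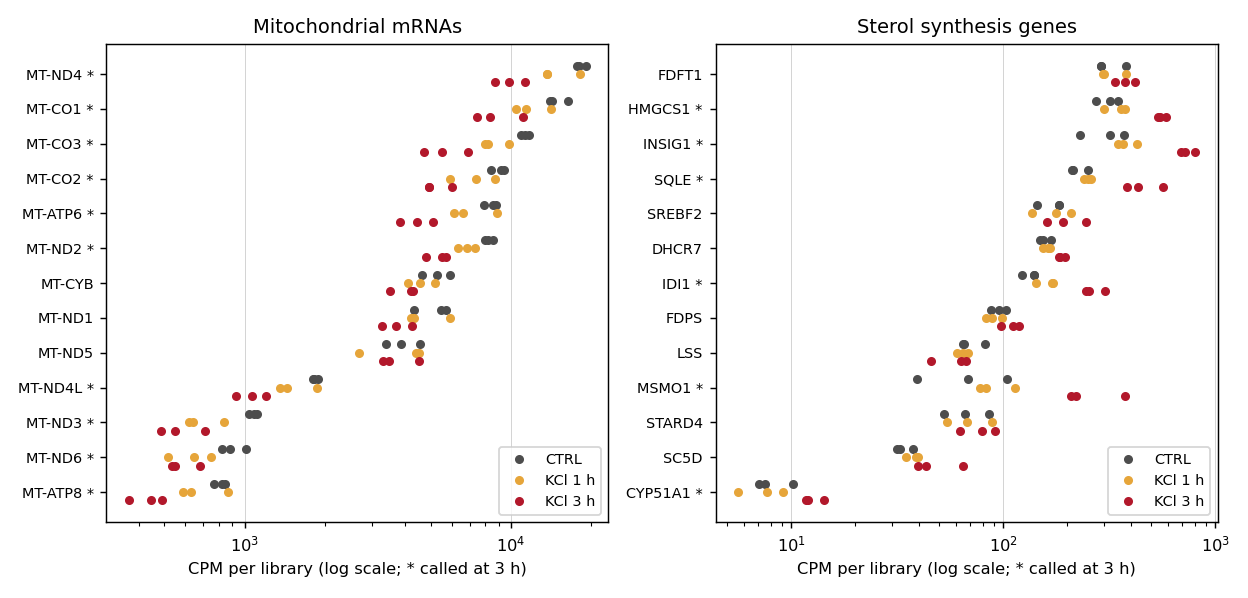
CPM in each CTRL (gray), KCl 1h (orange) and KCl 3h (red) library, on log axes, for the mitochondrial mRNAs (left) and 13 of the 15 sterol synthesis genes (right), with an asterisk after the names of genes called at 3 h. Red points lie left of gray points for the called mitochondrial mRNAs such as MT-ND4 and right of them for INSIG1, HMGCS1 and SQLE, whose orange points overlap or nearly overlap the gray.

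Several of the largest rises were genes that are nearly silent in K562 and lie downstream of an expressed gene on the same strand. FGF18, a fibroblast growth factor (chromosome 5, 171419656 to 171457623, plus strand), had at most 1 count in a CTRL library, 2.02, 3.36 and 4 CPM in KCl 1h and 16.6, 21.4 and 16.1 CPM in KCl 3h, at least 111-fold higher than the floor. It starts 8.52 kb after the end of NPM1, the nucleolar chaperone, whose mean in CTRL was 2420 CPM and which was not called (0.30 ± 0.15). IQCN (chromosome 19, 18257097 to 18274509, minus strand) was at 7.64, 22.1 and 7.87 CPM in KCl 3h, at least 76.8-fold higher, and starts 5.25 kb after JUND.

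Others of this kind were LINC02481, a long noncoding RNA 17.2 kb after MRFAP1L1, and OVGP1, an oviduct glycoprotein gene 12.1 kb after WDR77. LINC02481 was at 0.110, 0.157 and 0.223 CPM in CTRL and 11.7, 7.61 and 13.8 CPM in KCl 3h (6.03 ± 0.66, adjusted p 7.92e-07). OVGP1 was at 0.386, 0.471 and 1.51 CPM in CTRL and 10.2, 13.8 and 17.6 CPM in KCl 3h (4.13 ± 0.64, adjusted p 6.49e-05). LSMEM1, a small membrane protein gene whose start overlaps the end of IFRD1 on the same strand, was at 1.10, 1.41 and 0.223 CPM in CTRL and 37.5, 30.8 and 44.7 CPM in KCl 3h (5.35 ± 0.32, adjusted p 8.03e-11), and IFRD1 itself rose by 0.65.

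The muscle actin gene ACTA1, 6.16 kb past NUP133, had at most 2 counts in a CTRL library and 3.28, 4.53 and 4.8 CPM in KCl 3h. PYGM, the muscle glycogen phosphorylase, 4.31 kb past the splicing factor gene SF1, went from 0.882, 1.26 and 0.948 CPM to 3.97, 9.26 and 3.07 CPM (2.39 ± 0.58, adjusted p 5.03e-03). Both mRNAs are known from muscle.

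The count of such genes was taken over the whole table. Of 437 tested genes with a mean under 10 CPM that overlap no gene and start within 10000 bases downstream of a same-strand gene at 10 CPM or more, 84 (19.2%) rose and 24 fell, with a median of 0.23, or 0.18 with the 58 genes at the floor set to their bound. Of 4359 genes of the same range with no such gene within that distance on either strand, 293 (6.72%) rose and 328 fell, with a median of 0.05. At 1 h against the same controls the 437 had 50 rises and 6 falls, and between 1 h and 3 h 18 rises and 7 falls. Leaving out 1 library gave 65 to 82 rises. Among the genes of both kinds with over 3 counts in a CTRL library, 46 of 379 (12.1%) downstream of an expressed gene rose and 24 fell, against 152 rises (3.69%) and 328 falls of 4124.

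The share of rises was lower at larger distances. Among genes under 1 CPM in CTRL, 22.7% of 379 within 5 kb of the nearest upstream expressed gene rose, 23.6% of 212 at 5 to 10 kb, 23.9% of 306 at 10 to 20 kb and 20.5% of 488 at 20 to 50 kb. At 50 to 100 kb it was 14.5% of 475, and beyond 100 kb or with no such gene 7.49% of 2724, where 12.7% of all 4584 genes at this level rose. A gene with at most 3 counts in every CTRL library could pass the low-count filter only through groups where it is higher, and such genes made up 64 of the 379 and 219 of the 2724. Without them the shares in the same order were 14.6%, 15.3%, 13.6%, 11.6%, 7.60% and 4.19%, and 7.16% over all. These genes are not independent of each other, since several may lie past 1 upstream gene, and whether the reads join the 2 genes was not tested, as the count table holds no reads between genes. Not every large rise had such a neighbor. The nearest expressed gene upstream lay 57.2 kb from FOSB, 121 kb from GADD45B and 266 kb from FOS.

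**Figure D4:**
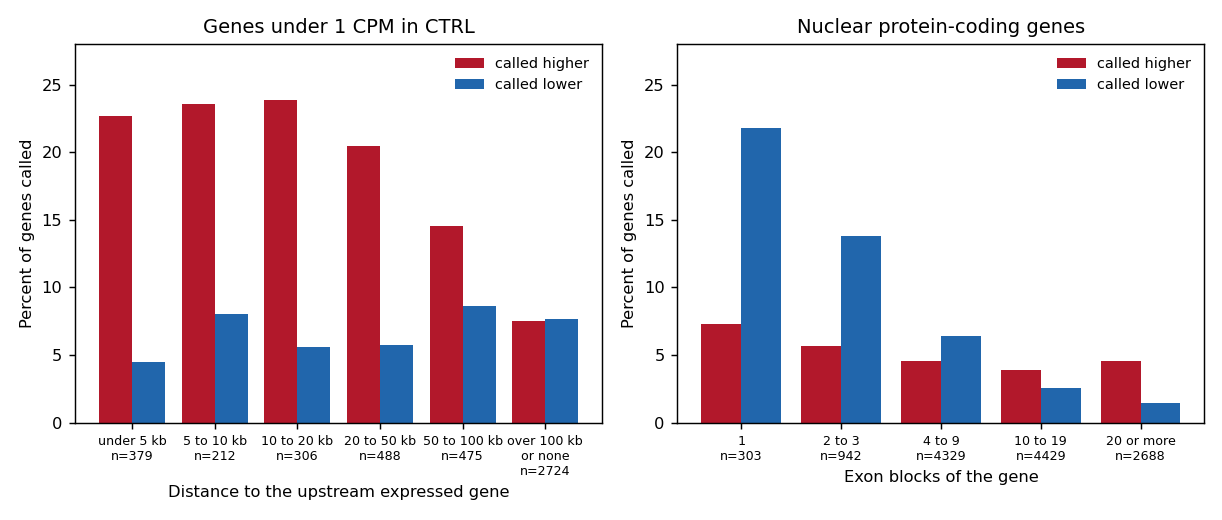
Percent of genes called higher (red) and lower (blue) in KCl 3h against CTRL, for genes under 1 CPM in CTRL by distance to the nearest upstream same-strand gene at 10 CPM or more (left) and for nuclear protein-coding genes by their number of exon blocks (right), with the number of genes under each pair of bars. On the left the red share stays between 20.5% and 23.9% up to 50 kb and is 7.49% beyond 100 kb, and on the right the blue share goes from 21.8% with 1 block to 1.41% with 20 or more.

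Several of the genes that fell were the host transcripts of microRNAs (miRNAs), small RNAs that are cut from a longer precursor and repress mRNAs that match bases 2 to 8 of the miRNA, its seed. A selection of the mature miRNAs of the 3 hosts with the largest falls is shown, with other arms left out, 5′ to 3′ from RefSeq (GRCh38.p14) with the seed in capitals; poly(A) libraries do not measure the mature forms.
hsa-miR-223-3p, chrX:66018937-66018958, plus strand: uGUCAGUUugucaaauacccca
hsa-miR-17-5p, chr13:91350618-91350640, plus strand: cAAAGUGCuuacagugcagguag
hsa-miR-18a-5p, chr13:91350756-91350778, plus strand: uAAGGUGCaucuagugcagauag
hsa-miR-19a-3p, chr13:91350939-91350961, plus strand: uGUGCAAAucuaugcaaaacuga
hsa-miR-20a-5p, chr13:91351072-91351094, plus strand: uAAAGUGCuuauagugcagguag
hsa-miR-19b-3p, chr13:91351245-91351267, plus strand: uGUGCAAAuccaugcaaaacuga
hsa-miR-92a-3p, chr13:91351361-91351382, plus strand: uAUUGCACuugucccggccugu
hsa-miR-142-3p, chr17:58331245-58331267, minus strand: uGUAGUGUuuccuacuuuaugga
hsa-miR-142-5p, chr17:58331283-58331303, minus strand: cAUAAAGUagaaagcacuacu

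The host MIR17HG carries the miR-17-92 cluster, in which miR-17-5p and miR-20a-5p share the seed AAAGUGC and miR-19a-3p and miR-19b-3p share GUGCAAA. It was at 68.9, 48.1 and 54.0 CPM in CTRL, 5.12, 6.45 and 5.65 CPM in KCl 1h and 7.15, 8.93 and 6.48 CPM in KCl 3h. Its low level was reached by 1 h and was no lower at 3 h, with -2.92 ± 0.32 against CTRL (adjusted p 8.36e-07) and 0.38 ± 0.32 against KCl 1h.

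MIR223HG, the host of the myeloid miR-223, was at 25.7, 70.9 and 26.6 CPM in CTRL, 1.66, 0.502 and 0.814 CPM in KCl 1h and 0.734, 0.520 and 1.44 CPM in KCl 3h. CTRL replicate 2 was the highest control, and all treated libraries lay below all controls (-5.52 ± 1.26, adjusted p 4.16e-03). MIR142HG, the host of the blood-cell miR-142, fell from 12.3, 5.34 and 10.7 CPM to 0.685, 3.21 and 1.24 CPM (-2.45 ± 0.48, adjusted p 7.51e-04). Of 29 miRNA hosts tested, 9 fell (31.0%) and 2 rose (6.90%) at 3 h, with a median of -0.48. Among all long noncoding RNAs tested 17.8% were lower, with a median of -0.34, and over all genes tested 7.33% were lower. Without the libraries numbered 3, 6 hosts fell. MIR23AHG, the host of the miR-23a cluster, went the other way, from 2.65, 2.67 and 3.79 CPM in CTRL through 1.45, 1.51 and 2.54 CPM in KCl 1h to 6.22, 7.04 and 10.8 CPM in KCl 3h (1.40 ± 0.29 against CTRL, adjusted p 1.23e-03).

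CD69, TNFRSF12A and TXNIP were also among the 10 largest falls. CD69, an early activation antigen of leukocytes, was at 5.29, 28 and 12.2 CPM in CTRL and 0.343, 0.756 and 0.445 CPM in KCl 3h (-4.86 ± 1.11, adjusted p 3.94e-03). TNFRSF12A, the receptor of the cytokine TWEAK, was at 9.04, 7.39 and 14.8 CPM in CTRL and 0.881, 1.84 and 1.34 CPM in KCl 3h (-2.93 ± 0.26, adjusted p 3.12e-08). TXNIP, which binds thioredoxin and limits glucose uptake, was at 246, 402 and 227 CPM in CTRL, 295, 130 and 106 CPM in KCl 1h and 67.6, 40.4 and 39.0 CPM in KCl 3h (-2.57 ± 0.41 against CTRL, adjusted p 1.15e-04). In each of the 3 genes every treated library lay below every control.

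Zinc-finger repressors (ZNF genes), many of which stand in tandem arrays on chromosome 19, fell in numbers. Of 212 tested on that chromosome, 60 fell (28.3%) and 6 rose (2.83%), with a median of -0.35. Of 225 on other chromosomes 41 fell (18.2%) and 5 rose (2.22%), with a median of -0.18. Over all genes tested 7.33% fell and 4.55% rose. Of 799 other protein-coding genes on chromosome 19, 35 fell and 29 rose. In the direct comparison of the times, 39 of the 212 were lower at 3 h than at 1 h and 1 was higher, and at 1 h against CTRL 3 were lower and 5 higher.

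ZNF121, which has the highest CPM of the 60, was at 167, 142 and 136 CPM in CTRL, 115, 140 and 96.3 CPM in KCl 1h and 60.9, 62.3 and 44.2 CPM in KCl 3h (-1.41 ± 0.15, adjusted p 2.72e-07). ZNF441 was at 11.2, 12.2 and 12.3 CPM in CTRL and 2.30, 2.27 and 3.32 CPM in KCl 3h (-2.17 ± 0.20, adjusted p 7.55e-08). ZNF439 was an exception on the same chromosome and rose from 0.110, 0.262 and 0.223 CPM to 4.01, 4.39 and 3.81 CPM (4.32 ± 0.39, adjusted p 3.7e-08). Members of this family share sequence, and the authors kept only reads that map to a single place.

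Genes with few exons fell more often than genes with many. Among nuclear protein-coding genes, 21.8% of the 303 with a single exon block were lower, 13.8% with 2 to 3, 6.42% with 4 to 9, 2.57% with 10 to 19 and 1.41% of the 2688 with 20 or more. Rises were also somewhat more frequent with few blocks, at 7.26%, 5.63%, 4.55%, 3.88% and 4.54% in the same order. The classes also differ in level, with a median of 6.45 CPM for 1 block and 38.6 CPM for 20 or more. Within 10 to 100 CPM the shares lower were 27.0%, 15.1%, 4.95%, 2.25% and 1.34% in the same order. The shares higher were 4.35%, 3.64%, 1.19%, 1.01% and 1.51%. At 100 CPM or more, 1 of 23 genes with a single block was lower and 2 were higher. KBTBD6, an adaptor of the CUL3 ubiquitin ligase, is an example, at 13.2, 10.9 and 14.2 CPM in CTRL and 3.62, 3.78 and 3.12 CPM in KCl 3h.

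RNAs named as antisense to a gene had 79 falls (15.5%) and 16 rises among 510, with a median of -0.29. RNAs named as divergent from a promoter (-DT) had 46 falls (19.3%) and 6 rises among 238, with a median of -0.44. These shares lie near that of all long noncoding RNAs tested, of which 17.8% were lower, with a median of -0.34. Over all genes tested 7.33% were lower. The count of antisense falls was 51 without CTRL replicate 1 and 51 without KCl 3h replicate 2, and the count of -DT falls was 30 without CTRL replicate 2. Although the kit marks strand, the authors name no strand option for counting, so reads of an antisense RNA and of the gene opposite to it cannot be told apart.

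**Figure D5:**
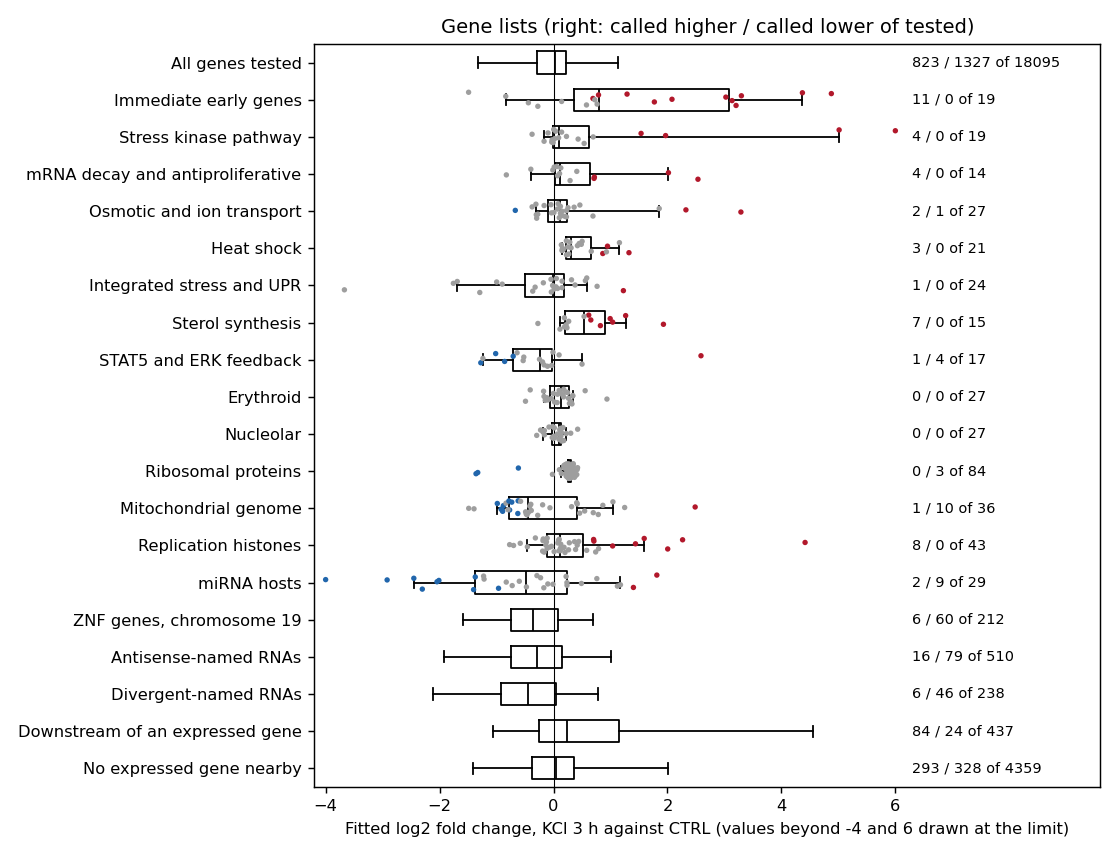
Fitted log2 fold change of KCl 3h against CTRL for all genes tested and for lists of genes, where the box spans the quartiles, its line is the median, the whiskers run from percentile 5 to percentile 95, and points are single genes of the smaller lists, red if called higher, blue if called lower and gray otherwise. The counts at the right are those called higher and lower of those tested, such as 11 and 0 of 19 immediate early genes and 6 and 60 of 212 ZNF genes on chromosome 19.

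The other groups differed in their shares of calls, where 4.55% of all genes tested were called higher and 7.33% lower. Of 27 nucleolar and ribosome biogenesis genes edgeR and DESeq2 both called 0, 1 had an unadjusted p under 0.05, and the median was 0.10. Of 10 antioxidant genes both tools called 0, and 0 had an unadjusted p under 0.05. Of 84 cytosolic ribosomal protein genes 3 fell, and the median was 0.27. RPL36A had the largest fall of the 3, at 22.0, 14.8 and 19.1 CPM in CTRL and 4.55, 8.46 and 8.71 CPM in KCl 3h. That is a small part of the 57140 to 60490 CPM that the 84 genes summed to in CTRL, and only reads that map to a single place were counted. RPL17, another of the 3, lost its call without CTRL replicate 1 (-0.54) or 2 (-0.63) and without KCl 3h replicate 1 (-0.54) or 3 (-0.63). Of 24 hosts of small nucleolar RNAs, 4 rose and 3 fell; SNHG1 rose from 246, 207 and 246 CPM to 415, 472 and 376 CPM (0.86 ± 0.13, adjusted p 2.89e-05), and SNHG4 fell from 51.6, 32.0 and 42.6 CPM to 15.2, 13.7 and 14.7 CPM (-1.53 ± 0.22, adjusted p 1.99e-05). The number of snoRNA hosts that rose was 1 without KCl 3h replicate 1 and 2 without CTRL replicate 3. Of 43 replication histone genes 8 rose, a count that was 5 without CTRL replicate 3 and 3 without both libraries numbered 3. H2BC6 was at 4.35, 4.19 and 2.95 CPM in CTRL and 7.10, 6.99 and 9.55 CPM in KCl 3h. These genes held 0.117% to 0.1936% of the counts in CTRL and 0.1445% to 0.1952% in KCl 3h. Poly(A) libraries do not measure histone RNA that lacks a poly(A) tail, so the total level of these RNAs is not known from here. Of 17 NF-κB targets, 2 rose and 1 fell. The shares called higher were 16.7% for the snoRNA hosts, 18.6% for the replication histone genes and 11.8% for the NF-κB targets. The shares called lower were 12.5% for the snoRNA hosts, 5.88% for the NF-κB targets and 3.57% for the ribosomal protein genes.

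The 2 times in KCl were compared directly, and 596 of the 18095 genes differed (3.29%), 248 higher (1.37%) and 348 lower (1.92%) at 3 h than at 1 h. Both times share CTRL, against which the libraries of the first hour gave 986 calls (5.45%), made up of 454 rises (2.51%) and 532 falls (2.94%). SEMA4D was higher at 3 h than at 1 h by 2.50 ± 0.14 (adjusted p 2.97e-11), GADD45B by 2.90 ± 0.40 (adjusted p 7.79e-05) and ZFP36 by 2.14 ± 0.14 (adjusted p 5.39e-10). FOS differed by 0.62 ± 0.41 between the times and was not called.

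Falls after the first hour were seen in ZBTB6, a zinc-finger repressor, at 17.1, 13.8 and 16.4 CPM in CTRL, 10.6, 14.4 and 10.7 CPM in KCl 1h and 3.23, 4.02 and 3.96 CPM in KCl 3h (-1.67 ± 0.17 against KCl 1h, adjusted p 1.46e-06). PKP4-AS1, an antisense RNA, was the single gene above CTRL at 1 h and below it at 3 h by the call, with 1.38, 0.995 and 0.613 CPM in CTRL, 2.54, 2.81 and 2.56 CPM in KCl 1h and 0.441, 0.614 and 0.148 CPM in KCl 3h. The number of calls between the 2 times was 364 without KCl 1h replicate 2, the deepest library, and 294 when those 2 groups were fitted alone. The libraries of the 2 times pair by number, and with the replicate number as a block the fit of the 2 groups gave 849 calls (389 higher).

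Nuclear RNA of K562 after 1 h of KCl was measured against nuclear controls of its own, so it shares no library with the mRNA comparison. In that fraction 15.3% of genes were called higher and 8.5% lower. Of the 758 genes that rose in mRNA at 3 h and were tested in nuclear RNA, 558 (73.6%) were called higher there, which is 34.15% of the 1634 nuclear rises among the 16728 genes tested in both, and 3 were called lower. Of 1308 genes that fell in mRNA, 487 (37.2%) were called lower in the nucleus, 45.3% of the 1074 nuclear falls, and 21 were called higher. The times differ, so no size of change is compared between the fractions.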

How the data were processed

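Poly(A) mRNA libraries of untreated K562 cells and of cells kept in 110 mM KCl for 3 h or 1 h were compared, with 3 biological replicates in each group by the labels. The authors removed duplicates with FASTP, mapped read pairs to hg38 with STAR (2.7.7a), kept unique reads and deposited raw counts per gene from featureCounts (Subread 2.0.3); the submitters' processing notes name GRCh38.p14, and the annotation release is not given in the sources used here. All 27 mRNA libraries in 9 groups were fitted together with edgeR (4.0.16, R 4.3.3), using TMM factors, filterByExpr and the robust quasi-likelihood test with 1 term per group (common dispersion 0.0284). SE is the fold change divided by the root of F. Of 58243 gene IDs, 18095 passed the filter. Depth was 17855236 to 22505595 read pairs in the CTRL and KCl 3h libraries, so 3 counts are 0.146 to 0.163 CPM. Genes with at most 3 counts in every CTRL library are given as lower bounds. The script was tested on simulated counts. RLE factors, DESeq2 (1.42.0), no filter, other sets of samples, a replicate block and leaving out each library were tried as alternatives. Named genes are the 10 largest rises and falls with at least 10 CPM and no overlap, up to 6 genes at the floor, the 8 most abundant called genes, up to 4 called members of each list in each direction with its first member, and the 5 largest differences each way between the times in KCl; ZC3H12A, BRD2, NR4A1, IER3, JUNB and others outside that rule were named after their values were seen. Values of a few single genes are not reported here. The members and the lists were chosen with earlier results of these data known. KCl 3h and KCl 1h libraries of the same number deviated together from their group means (r of 0.584, 0.671 and 0.647), so these numbers pair the samples, whereas KCl 3h and CTRL libraries of the same number did not all do so (0.0784, -0.281 and 0.554).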

Additional observations from a re-analysis of the deposited data

Results flagged for a closer look

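The responses at the 2 times in KCl differed in a direct test by edgeR's quasi-likelihood method, which called 596 genes at an adjusted p under 0.05 and a log2 difference beyond 0.6. Values below are KCl 3h less KCl 1h on the log2 scale, and each named gene is listed because of that test. IQCN (3.44), GADD45B (2.90), FGF18 (2.50), SEMA4D (2.50) and ERRFI1 (2.35), a feedback inhibitor of the EGF receptor, were higher at 3 h. C2orf69 (-1.68), ZBTB6 (-1.67) and KBTBD6 (-1.59) were lower at 3 h, and their levels at 1 h were not called different from CTRL. TXNIP was lower by 1.85 (SE 0.40, adjusted p 6.87e-03), but its KCl 1h replicate 1 stood at 295 CPM beside 130 and 106, and the call was lost without that library (-1.27) and without KCl 3h replicate 3 (-1.71). GRPEL2, a mitochondrial cochaperone, differed by -1.48; its KCl 1h libraries read 104, 55.6 and 45.5 CPM, with replicate 1 the highest, and the call was lost without KCl 3h replicate 1 (-1.70), 2 (-1.50) or 3 (-1.27) and without KCl 1h replicate 1 (-1.06) or 2 (-1.61). PKP4-AS1 differed by -2.69 (SE 0.38, adjusted p 7.16e-05) and moved in opposite directions from CTRL, by 1.40 at 1 h and by -1.29 at 3 h; it was at 0.148 to 2.81 CPM in all 9 libraries. Groups of 3 were too small for a test of single outlying samples.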

How the results depend on the processing

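KCl 3h against CTRL gave 2150 calls, and 1886 to 2068 when 1 library was left out, 2127 with RLE factors, 2102 with DESeq2, 1506 with the 2 groups alone and 1634 without the libraries numbered 3 (an alternative chosen after seeing the data), of which 1471 were among the 2150. Without the low-count filter 3011 of 40963 genes were called, 1463 of them higher, so that 48.6% of calls were higher instead of 38.3%; more genes were tested there. KCl 3h against KCl 1h depended more on the setting. Its 596 calls (248 higher, 348 lower) became 990 (476 higher) without the filter, 294 (154 higher, 140 lower) with the 2 groups alone, which moved the share of higher calls from 41.6% to 52.4%, and 364 to 588 (154 to 255 higher, 210 to 344 lower) without 1 library, lowest without KCl 1h replicate 2; 547 were lower with no fold threshold. With the replicate number as a block, KCl 3h against KCl 1h, where the numbers pair the samples, gave 785 calls, and 849 (389 higher) for the 2 groups alone with the block; it moved no other count of calls in that comparison by over 1.5 times. For KCl 3h against CTRL the block gave 2459 calls, but by the labels these samples share only a number: KCl 3h replicate 1 correlated best with CTRL replicate 2 (0.533), replicate 2 with CTRL replicate 1 (0.716) and replicate 3 with CTRL replicate 3 (0.554), a hint from the data that the numbers of CTRL 1 and 2 may be crossed. The study's own list of libraries also has the depths of CTRL 1 and 2 in the other order, and no crossed pairing was fitted. Of the genes named by the rule, none that was called changed direction under any setting. Over these genes and settings 2301 values counted as unchanged, which includes genes not called in either fit, 131 lost a call and 5 gained one. A change of sign in a gene that was not called did not count as a reversal. Genes named outside the rule were not part of these counts. With at most 22505595 read pairs in these 6 libraries, a fall from a CTRL level near 3 counts was not detectable.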
